A study of Homo sapiens with 11 samples.

Results

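ABCA1, ABCG1, APOE, APOB, SCARB1, LPL, LIPA, LIPC and CETP are 9 human genes of lipoprotein metabolism and cholesterol efflux. They were taken by gene symbol from a table of 60605 features, and all 9 were listed. The table holds 11 polyA RNA-seq libraries of ARPE-19, an established human cell line derived from retinal pigment epithelium (RPE). Every library came from a stable line that had expressed an introduced open reading frame for 4 days: GFP, a fluorescent protein used as the control (n = 3), Oct4, Sox2 or Klf4 alone, or the 3 factors together (OSK; n = 2 each). The labels name the factor columns with the suffix mC, without saying what it stands for, and give neither the promoter nor the species of the reading frames. They also do not say whether libraries of a group came from separate cultures, so p-values measure the spread between these libraries, which may be technical.

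RPE cells engulf the shed, lipid-rich tips of photoreceptors and have to dispose of the cholesterol they take in. LIPA, the lysosomal acid lipase, frees cholesterol from its esters in the lysosome. ABCA1 moves cholesterol and phospholipid from the cell to lipid-poor apolipoproteins, and ABCG1 moves cholesterol to larger particles. SCARB1 is the receptor for high-density lipoprotein (HDL) and exchanges cholesterol with it in both directions. APOE and APOB are the protein parts of secreted lipoproteins, LPL and LIPC hydrolyse lipoprotein lipid outside the cell, and CETP moves cholesteryl ester between particles. ABCA1, ABCG1 and APOE are known targets of the liver X receptors (NR1H2 and NR1H3), nuclear receptors that bind oxysterols.

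The upstream sequences of ABCA1 and APOE are shown because ABCA1 was the member that rose most and APOE one that fell, as described below. Each run is the 250 bases before the annotated start (RefSeq, GRCh38.p14), read 5′ to 3′ on the gene's strand. ABCA1 lies at chr9:104928156-104928405 on the minus strand and APOE at chr19:44905546-44905795 on the plus strand. Capitals mark matches, on either strand, to a KLF-type motif (GGGNGTGG), an E-box (CACGTG) and a pair of AGGTCA repeats in the same direction with 4 bases between them and at most 1 mismatch in each, the arrangement that liver X receptors bind.
ABCA1: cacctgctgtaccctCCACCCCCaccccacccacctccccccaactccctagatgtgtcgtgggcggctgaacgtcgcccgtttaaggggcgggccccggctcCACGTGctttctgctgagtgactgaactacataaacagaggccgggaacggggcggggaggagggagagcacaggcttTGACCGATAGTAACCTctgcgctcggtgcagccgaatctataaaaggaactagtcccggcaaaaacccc
APOE: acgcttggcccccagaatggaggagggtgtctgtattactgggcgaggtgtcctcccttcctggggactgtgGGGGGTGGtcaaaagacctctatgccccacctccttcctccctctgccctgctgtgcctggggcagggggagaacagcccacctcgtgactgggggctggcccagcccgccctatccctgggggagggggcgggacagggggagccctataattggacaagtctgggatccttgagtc
Going from left to right, the ABCA1 run holds 1 KLF-type match, 1 E-box and 1 AGGTCA pair, and the APOE run holds 1 KLF-type match. Among 27305 upstream runs of the same length, 15.3% held the KLF-type motif, 6.49% the E-box and 1.19% the AGGTCA pair. Neither run held the octamer ATGCAAAT (1.66% of all runs) or the SOX-type motif ACAAAG (13.7%). Nor did either hold an exact AGGTCA (12.1%) or the sterol element TCACNCCAC (0.875%). Both repeats of the ABCA1 pair therefore carry a mismatch. These are matches of letters, not measured binding.

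Each value below is a normalised count, meaning that the authors scaled a gene's reads by a single factor for its library. Whole reads could be recovered from these values and totalled 15053300 to 19791775 per library. GFP replicate 1 stood apart, with at least 1 read on 42956 features, as did OSK replicate 1 with 32493, against 25853 to 26971 in the other libraries. POU5F1 (the gene of Oct4), SOX2 and KLF4 were high in the lines labelled for them, OSK included: POU5F1 had 66823 or more normalised counts in the Oct4 line and at most 446 in the GFP, Sox2 and Klf4 lines. The OSK libraries had less of both POU5F1 (19020.3 and 19542) and SOX2 (17764 and 17582, against 29106 and 29140.5 in the Sox2 line), while KLF4 had 24469.8 and 24202 in OSK and 24205 and 22142 in the Klf4 line. Of 12 RPE markers, 9 were expressed above the filter described below. Among defining markers, MITF ranged from 748 to 3603 and OTX2 from 1175 to 2372 normalised counts, but RPE65 had at most 4.63 and TTR at most 4.97 in any library. PTPRC, which marks white blood cells, and ALB, which marks hepatocytes, had at most 2.24 and 3.43. CSF1R, a macrophage marker, was present in every library, from 44 normalised counts in an OSK library to 288 in a Klf4 library. The summed RPE marker level was 12784 to 16485 in GFP, 4277 to 4851 with Oct4, 2454 to 2517 with Sox2, 8130 to 9842 with Klf4 and 5572 to 5945 with OSK. Of the 9 tested RPE markers, 7 fell with Oct4, 6 with Sox2, 3 with Klf4 (1 rose) and 8 with OSK. The part of this decline in the members' changes was not tested. Summed over 6 genes each, photoreceptor markers had 181 to 363 and macrophage markers 49.5 to 295 normalised counts in any library. The macrophage list included PTPRC and CSF1R, and CSF1R made the largest part of its sum in every library. Hepatocyte markers summed to 77.5 in GFP replicate 1 and at most 50.6 elsewhere, and adipocyte markers to 87.4 and at most 29.3. In these bulk libraries, fewer cells with a transcript and less transcript per cell cannot be told apart.

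Genes with at least 10 normalised counts in at least 2 libraries were tested with limma on log2(value + 1), which left 18828. Of the 9 members, 5 passed this filter: ABCA1, ABCG1, APOE, SCARB1 and LIPA. Against GFP, the members called were 2 of these 5 with Oct4 (1 up, 1 down), 1 with Sox2 (up), and 3 with both Klf4 and OSK (each 1 up, 2 down), at an adjusted p under 0.05. Over all genes tested the shares called were 37.3% with Oct4, 41.6% with Sox2, 33.5% with Klf4 and 39.7% with OSK, and with 5 members tested none of these counts was read as different from that background. What set the members apart from each other was the direction and the line, as the plot of changes from GFP shows.

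**Figure D1:**
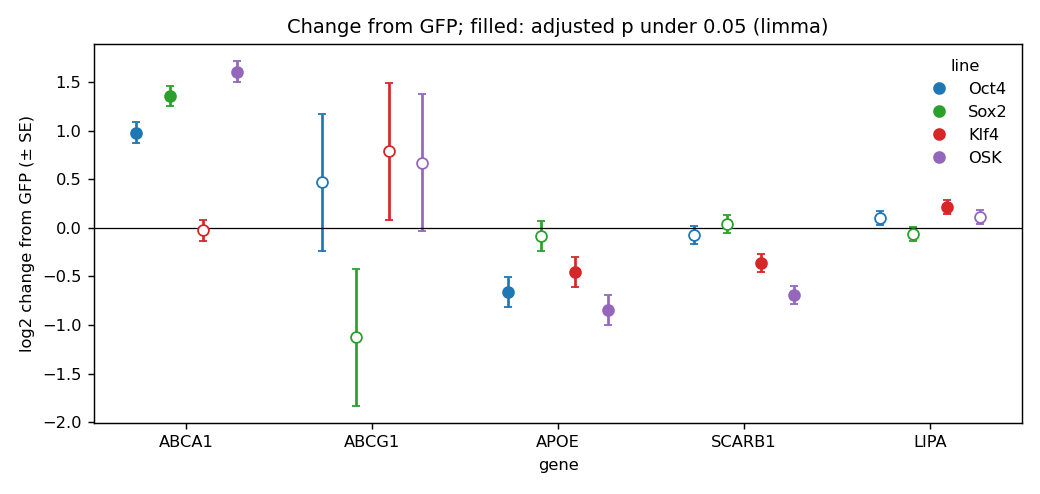
Log2 change from GFP (vertical axis, on the log2(value + 1) scale, error bars 1 SE) of the 5 members that passed the filter, by line (colour). Filled points passed an adjusted p of 0.05 in limma. ABCA1 is up in Oct4, Sox2 and OSK and level in Klf4, APOE is down in Oct4, Klf4 and OSK, and SCARB1 is down in Klf4 and OSK.

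ABCA1 made the largest called change of any member. It had 584, 520.0 and 581 normalised counts in the GFP libraries, 949 and 1296 in Oct4, 1415 and 1469 in Sox2, 567 and 538 in Klf4, and 1793 and 1641 in OSK. Every Oct4, Sox2 and OSK library lay above every GFP library, whereas the Klf4 libraries lay within the GFP range. In mean counts ABCA1 was 2.00-fold above GFP with Oct4, 2.57-fold with Sox2 and 3.06-fold with OSK. The log2 change was 0.98 with Oct4 (SE 0.11; limma adjusted p = 2.28e-06), 1.36 with Sox2 (SE 0.11; limma adjusted p = 4.36e-08) and 1.61 with OSK (SE 0.11; limma adjusted p = 7.91e-09). With Klf4 it was -0.02 (SE 0.11; limma adjusted p = 0.898). These changes put ABCA1 at the 90.4th, 95.6th, 49.9th and 96.2nd percentile of all tested genes with Oct4, Sox2, Klf4 and OSK. The rise rested on deep counts, at least 471 reads in every library.

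**Figure D2:**
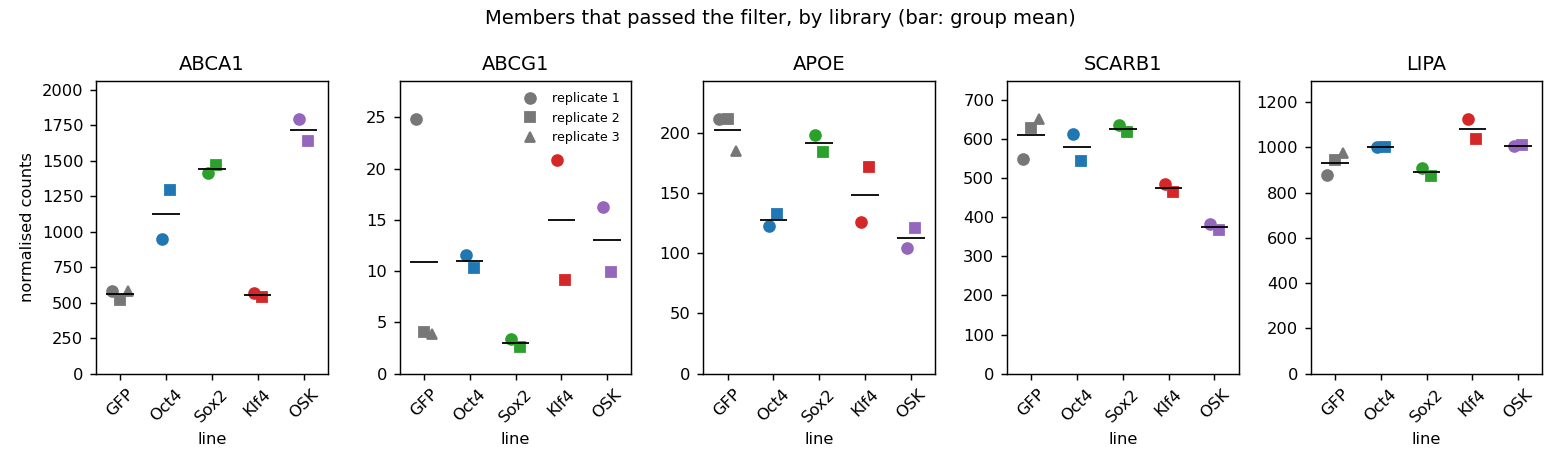
Normalised counts (vertical axes start at 0) of the 5 members that passed the filter in each of the 11 libraries, by line, with the group mean as a bar and the replicate number as the symbol. ABCA1 runs from 520.0 in GFP replicate 2 to 1793 in OSK replicate 1, SCARB1 is lowest in OSK, and the ABCG1 value of 24.8 in GFP replicate 1 stands above the 2 other GFP libraries.

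The lines were also set against each other. ABCA1 ranked OSK (1717 ± 107 normalised counts, SD, n = 2), Sox2 (1442 ± 38.5), Oct4 (1122 ± 245), GFP (562 ± 36.2, n = 3) and Klf4 (552 ± 20.2). The first pair of neighbours, OSK and Sox2, did not pass (log2 difference 0.25, SE 0.12; limma adjusted p = 0.104), although it did when the fit held those lines alone (limma adjusted p = 0.00893), and without either Oct4 library (0.0326 without Oct4 replicate 1, 0.0333 without Oct4 replicate 2). Sox2 exceeded Oct4 by 0.38 (SE 0.12; limma adjusted p = 0.0202), a call that rested on Oct4 replicate 1: without it the difference was 0.15 (limma adjusted p = 0.329). That call was also lost without either Sox2 library (limma adjusted p = 0.0659 and 0.107) and with no filter on low values (0.0701). OSK exceeded Oct4 by 0.63 (SE 0.12; limma adjusted p = 4.16e-04) and Klf4 by 1.63 (SE 0.12; limma adjusted p = 6.20e-08). Klf4 lay below Oct4 by a log2 difference of -1.004 and below Sox2 by -1.38 (SE 0.12 each; limma adjusted p = 3.61e-06 and 9.61e-08).

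To ask whether the combined line gave the total of its parts, OSK was set against the Oct4, Sox2 and Klf4 log2 changes added together. POU5F1 and SOX2 were lower in OSK than in their own lines, as given above, and their part in this comparison was not tested. For ABCA1 the sum was 2.32 and the OSK change 1.61, a shortfall of -0.71 (SE 0.21; limma adjusted p = 0.0168). It was the 1 member called in this comparison, in which 35.9% of all tested genes were called. The shortfall was not called with no filter (limma adjusted p = 0.0593), without GFP replicate 2 (-0.60, limma adjusted p = 0.059) or without OSK replicate 2 (-0.65, limma adjusted p = 0.0525). For APOE, SCARB1, LIPA and ABCG1 the difference from the sum was 0.35 (SE 0.31), -0.31 (SE 0.19), -0.14 (SE 0.14) and 0.54 (SE 1.41), none called (limma adjusted p = 0.41, 0.219, 0.5 and 0.804).

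**Figure D3:**
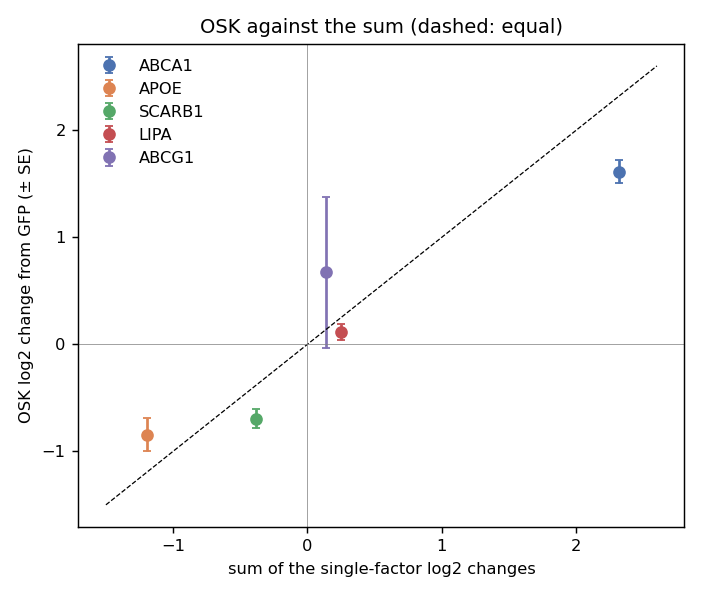
OSK log2 change from GFP (vertical axis, error bars 1 SE) against the sum of the Oct4, Sox2 and Klf4 log2 changes from GFP (horizontal axis) for the 5 members that passed the filter, with equality as the dashed line. ABCA1 lies below the line at a sum of 2.32 and an OSK change of 1.61. All 4 changes share the GFP libraries.

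APOE moved downward where it changed. It had 212, 211 and 185 normalised counts in GFP, 123 and 133 in Oct4, 199 and 184 in Sox2, 126 and 171 in Klf4, and 104 and 121 in OSK. The Oct4, Klf4 and OSK libraries all lay below the GFP libraries, and the Sox2 libraries overlapped them. The log2 change was -0.66 with Oct4 (SE 0.15; limma adjusted p = 0.00302) and -0.84 with OSK (SE 0.15; limma adjusted p = 3.43e-04). In mean counts APOE stood at 0.632 of GFP with Oct4 and 0.556 with OSK. With Sox2 the log2 change was -0.08 (SE 0.15; limma adjusted p = 0.717). APOE shares 19 exon bases with AC011481.3 on the same strand, a gene with at most 34.8 normalised counts in any library.

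The fall of APOE with Klf4 was less secure. The log2 change was -0.46 (SE 0.15; limma adjusted p = 0.031), and the 2 Klf4 libraries differed by more than any other pair of factor-line replicates for this gene. Without Klf4 replicate 1 it was -0.24 (limma adjusted p = 0.378), without GFP replicate 1 it was -0.42 (limma adjusted p = 0.0662) and without GFP replicate 2 also -0.42 (limma adjusted p = 0.0831). DESeq2 on the recovered reads gave an adjusted p of 0.0938, limma with no filter 0.0709, and limma with only the compared groups 0.0536. APOE ranked GFP (203 ± 15.5, n = 3), Sox2 (191 ± 10.3, n = 2), Klf4 (149 ± 32.0), Oct4 (128 ± 6.85) and OSK (113 ± 11.96). No neighbours in this order passed, while OSK lay below Sox2 by -0.76 (SE 0.17; limma adjusted p = 0.00171). Sox2 exceeded Oct4 by 0.58 (SE 0.17; limma adjusted p = 0.0142), a difference that did not pass without Oct4 replicate 1 or Sox2 replicate 1 (limma adjusted p = 0.0811 and 0.0953). The difference of Klf4 from Sox2 was -0.38 (limma adjusted p = 0.0873) and was called without Klf4 replicate 2 (-0.60, limma adjusted p = 0.0218). That of OSK from Klf4 was -0.39 (limma adjusted p = 0.123) and was called without Klf4 replicate 1 (-0.61, limma adjusted p = 0.0409).

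SCARB1, the HDL receptor, had 548, 629 and 651 normalised counts in GFP, 614 and 544 in Oct4, 636 and 618 in Sox2, 485 and 464 in Klf4, and 383 and 368 in OSK. The Klf4 and OSK libraries lay below all GFP libraries, and the Oct4 and Sox2 libraries overlapped GFP. The log2 change was -0.36 with Klf4 (SE 0.09; limma adjusted p = 0.00712) and -0.69 with OSK (SE 0.09; limma adjusted p = 1.82e-05), and the mean in OSK was 0.616 of GFP. With Oct4 and Sox2 it was -0.07 and 0.04 (SE 0.09 each; limma adjusted p = 0.581 and 0.739). The Klf4 change was not called without Klf4 replicate 2 (-0.33, limma adjusted p = 0.0613). OSK lay below Oct4 by -0.62 (SE 0.10; limma adjusted p = 1.32e-04) and below Sox2 by -0.74 (SE 0.10; limma adjusted p = 2.32e-05).

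In mean level SCARB1 ranked Sox2 (627 ± 12.7, n = 2), GFP (610 ± 54.3, n = 3), Oct4 (579 ± 49.9), Klf4 (474 ± 14.7) and OSK (376 ± 10.0). Among these neighbours, Klf4 lay below Oct4 (-0.28, SE 0.10; limma adjusted p = 0.0344) and OSK below Klf4 (-0.34, SE 0.10; limma adjusted p = 0.0268). Both of these last calls were lost in DESeq2, at an adjusted p of 0.103 and 0.0887, and in limma on unfiltered genes, at an adjusted p of 0.101 and 0.0842. The first was also lost without either Klf4 library or Oct4 replicate 1 (limma adjusted p from 0.0722 to 0.246), and the second without any 1 of the Klf4 and OSK libraries (limma adjusted p from 0.0639 to 0.146). Klf4 lay below Sox2 by -0.40 (SE 0.10; limma adjusted p = 0.00455).

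LIPA moved least. It had 879, 944 and 974 normalised counts in GFP, 1001 and 999 in Oct4, 909 and 873 in Sox2, 1124 and 1038 in Klf4, and 1006 and 1009.7 in OSK. The Oct4, Klf4 and OSK libraries lay just above the GFP range, but only the Klf4 change passed, at 0.21 on the log2 scale (SE 0.07; limma adjusted p = 0.0328), or 1.16-fold in mean counts. That call was lost without Klf4 replicate 1 (0.16, limma adjusted p = 0.258), GFP replicate 1 (0.17, limma adjusted p = 0.0781) or GFP replicate 2 (0.22, limma adjusted p = 0.0537), in DESeq2 (adjusted p = 0.0917), and in limma on unfiltered genes or on Klf4 and GFP libraries alone (limma adjusted p = 0.0974 and 0.0752). The changes with Oct4, Sox2 and OSK were 0.10, -0.06 and 0.11 (SE 0.07 each; limma adjusted p = 0.297, 0.516 and 0.24). No neighbours in the order Klf4, OSK, Oct4, GFP, Sox2 passed, while Klf4 exceeded Sox2 by 0.28 (SE 0.08; limma adjusted p = 0.0102), a call lost without Sox2 replicate 2 (limma adjusted p = 0.0767) or Klf4 replicate 1 (0.1). LIPA shares 65 exon bases with IFIT2 and 135 with AL353751.1 on the opposite strand, and whether counting used strand is not given in the sources used here. IFIT2 had at most 303 normalised counts in any library.

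ABCG1 was expressed at the edge of detection. It had 24.8, 4.05 and 3.89 normalised counts in GFP, 11.6 and 10.3 in Oct4, 3.37 and 2.57 in Sox2, 20.8 and 9.14 in Klf4, and 16.3 and 9.90 in OSK, resting on 3 to 25 reads. GFP replicate 1, the library with reads on the most features, was the highest of all 11. With it no comparison with GFP passed (log2 changes 0.47, -1.12, 0.79 and 0.67 for Oct4, Sox2, Klf4 and OSK, SE 0.71 each; limma adjusted p = 0.644, 0.226, 0.43 and 0.498). Without it ABCG1 was higher with Klf4 (1.58, SE 0.57; limma adjusted p = 0.0374) and OSK (1.46, SE 0.57; limma adjusted p = 0.0459), from 4 reads in each remaining GFP library. In that fit Klf4 called 2 members (1 up, 1 down) and OSK 4 (2 up, 2 down), where 36.2% and 43.0% of 18235 tested genes were called. Without that library ABCG1 also exceeded Sox2 in OSK (1.80, SE 0.57; limma adjusted p = 0.0152), Klf4 (1.91, SE 0.57; limma adjusted p = 0.0101) and Oct4 (Sox2 minus Oct4 -1.60, SE 0.57; limma adjusted p = 0.0333).

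APOB, CETP, LIPC and LPL did not pass the filter. In GFP replicate 1 they had 15, 40, 17 and 10 reads. In the 10 other libraries APOB, CETP and LPL had at most 3 reads each, and LIPC at most 5, with 5, 14, 10 and 15 reads in total for APOB, CETP, LPL and LIPC. A limit of 3 reads corresponds to 2.57 to 3.48 normalised counts, depending on the library, and covers counting error only. APOB was listed at 0 in GFP replicates 2 and 3, both Oct4 libraries, Sox2 replicate 2, Klf4 replicate 1 and OSK replicate 2. No difference between lines was detectable for these 4 genes at this depth, and none was called when the filter was left out. The structural protein of low-density lipoprotein, the lipases LPL and LIPC and the cholesteryl ester transfer protein were thus at or near the detection limit in 10 of 11 libraries.

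**Figure D4:**
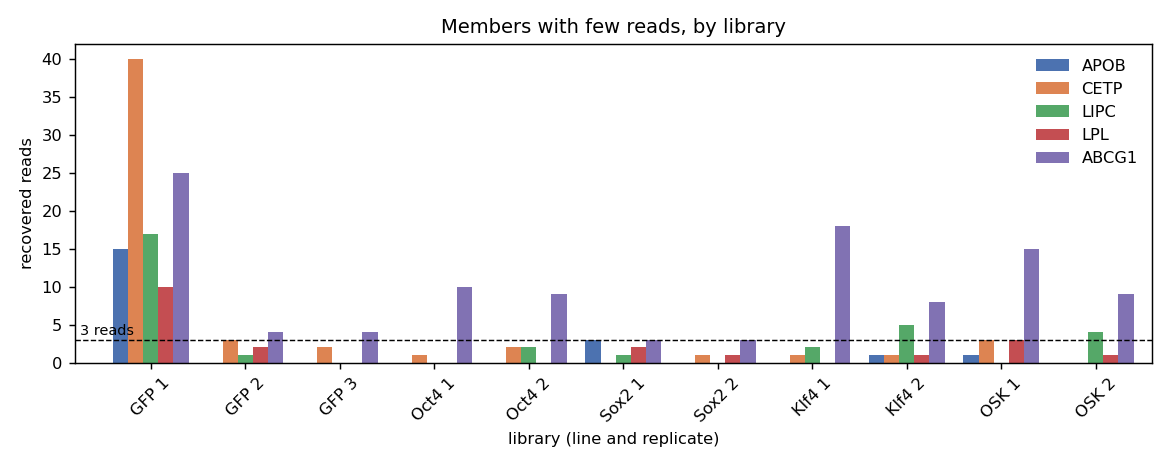
Recovered reads (vertical axis) of APOB, CETP, LIPC, LPL and ABCG1 in each of the 11 libraries, with 3 reads as the dashed line. In GFP replicate 1 the 5 genes have 10 to 40 reads, and in the other libraries only ABCG1 and, in 2 libraries, LIPC rise above the line.

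Levels were compared between genes per kilobase of exon (all annotated exons, GENCODE 29), as means over the 11 libraries. LIPA had 199 normalised counts per kb, ABCA1 90.9, APOE 73.4 and SCARB1 69.8, against 1.73 for ABCG1, 1.43 for CETP, 0.591 for LIPC, 0.426 for LPL and 0.126 for APOB. Among 17891 tested genes with a length, LIPA stood at the 79.3rd percentile of this level, ABCA1 at the 61.4th, APOE at the 56.5th, SCARB1 at the 55.3rd and ABCG1 at the 3.44th. The set therefore split into 4 genes of ordinary level and 5 at the low end. All annotated exons were counted in the length, so a gene with long unused exons is understated. The means of the 5 low genes include GFP replicate 1. That library had 39.7 normalised counts of CETP and 14.9 of APOB, against at most 3.25 and 3.37 in any other.

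Counts of members called between the factor lines were read against their background. Of the 5 tested, 2 were called for OSK against Oct4 (ABCA1 higher, SCARB1 lower; 40.3% of all genes called), 2 for OSK against Sox2 (APOE and SCARB1 lower; 40.5%) and 2 for OSK against Klf4 (ABCA1 higher, SCARB1 lower; 21.5%). Sox2 against Oct4 called 2 (ABCA1 and APOE higher; 33.4%), Klf4 against Oct4 2 (ABCA1 and SCARB1 lower; 41.7%) and Klf4 against Sox2 3 (LIPA higher, ABCA1 and SCARB1 lower; 40.8%). ABCG1 was called in none of them, but with the replicate number as a block it was called higher than Sox2 in OSK and Klf4 (limma adjusted p = 0.0474 and 0.0357).

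Across the 11 libraries, which share lines and so are not independent points, ABCA1 correlated with APOE at r = -0.486 and with SCARB1 at r = -0.345 on the log2 scale, and APOE with SCARB1 at r = 0.682. Among 12096 other genes with a symbol and a mean of at least 50 normalised counts, the genes whose pattern over the 11 libraries was most like that of ABCA1 were DDX5 (r = 0.975) and LRIG1 (r = 0.972). For APOE they were RAD23B (r = 0.946) and PYGO2 (r = 0.941), for SCARB1 FAM83H (r = 0.980) and LIMK1 (r = 0.978), and for LIPA MR1 (r = 0.952) and TTC19 (r = 0.946). For ABCG1 they were SNED1 (r = 0.899) and ZNF79 (r = 0.876), a likeness that includes GFP replicate 1. LRIG1 averaged 243 normalised counts in GFP, 366 in Oct4, 388 in Sox2, 248 in Klf4 and 490 in OSK. FAM83H averaged 2646, 2264, 2934, 1279 and 765 in the same order. The r takes no account of the size of a change. DDX5 averaged 15996 in GFP and 22207 in OSK, RAD23B 3349 and 2913, and PYGO2 1088 and 972. From GFP to OSK, these genes and LRIG1 changed by a smaller ratio than their members. FAM83H, LIMK1, MR1 and TTC19 changed by a larger ratio than theirs.

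Other genes of the pathway were followed through 5 lists with 90 genes, of which 69 were tested. Against GFP, 37 or 53.6% were called with Oct4 (21 up, 16 down), 38 or 55.1% with Sox2 (19 up, 19 down), 33 or 47.8% with Klf4 (20 up, 13 down) and 34 or 49.3% with OSK (20 up, 14 down). Their median log2 change was 0.10, -0.06, 0.07 and 0.02 in the same order, and that of all tested genes -0.02, -0.02, -0.02 and -0.01. Over all tested genes 37.3%, 41.6%, 33.5% and 39.7% were called in that order. Counted as 1 group, the 69 genes went both ways in every line, which does not hold for each list alone.

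The list of cholesterol efflux and oxysterol sensing, 20 of 23 genes tested, had 3 genes up and 8 down with Oct4, 2 up and 6 down with Sox2, 5 up and 5 down with Klf4, and 5 up and 6 down with OSK. CYP27A1, the mitochondrial enzyme that makes 27-hydroxycholesterol, had 265, 340 and 324 normalised counts in GFP and 3095 and 3119 in Oct4, a log2 change of 3.33 (SE 0.12; limma adjusted p = 1.23e-11). It was lower in the Sox2, Klf4 and OSK lines (-1.07, -1.04 and -0.69). LPCAT3, a phospholipid-remodelling enzyme and known liver X receptor target, rose with Klf4 (1.49, SE 0.08) and OSK (2.94, SE 0.08; limma adjusted p = 6.04e-13), from 367 on average in GFP to 2816 in OSK, and fell with Sox2 (-0.22). SMPDL3A rose with OSK (1.72, SE 0.19) and TTC39B with Oct4 (2.47, SE 0.14), Sox2 (1.71, SE 0.14) and OSK (0.90, SE 0.14). ABCA7, a relative of ABCA1, rose with Klf4 (1.22, SE 0.11), Sox2 (0.53) and OSK (0.45) and fell with Oct4 (-0.33). Without GFP replicate 1 the fall of ABCA7 with Oct4 was not called (-0.24, SE 0.10; limma adjusted p = 0.0625). The same held for the fall of LPCAT3 with Sox2 (-0.17, SE 0.08; limma adjusted p = 0.107). In that fit LPCAT3 was also higher with Oct4 (0.23, SE 0.08; limma adjusted p = 0.0351).

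A few further genes were picked after their values were seen. NR1H3 was lower with Oct4 (-0.79, SE 0.16; limma adjusted p = 0.00118) and Sox2 (-0.61, SE 0.16; limma adjusted p = 0.00631). It averaged 126 normalised counts in GFP, 170 in Klf4 and 112 in OSK. NR1H2 was higher with Klf4 (0.26, SE 0.08) and OSK (0.36, SE 0.08). With Oct4 and Sox2 the NR1H2 changes were 0.004 and -0.007 (limma adjusted p = 0.979 and 0.953). The part of either receptor in the members' changes was not tested. MYLIP, a receptor-induced ubiquitin ligase, was lower in all 4 lines, at -0.55, -0.83, -0.37 and -0.75 with Oct4, Sox2, Klf4 and OSK (SE 0.10 each; limma adjusted p at most 0.00802). SREBF1 was lower with Oct4 (-0.35) and Sox2 (-0.83) and higher with Klf4 (0.47; SE 0.09 each), and with OSK its change was 0.02 (limma adjusted p = 0.865). RXRA and RXRB, the receptors' partners, were called in no line (limma adjusted p from 0.0761 to 0.985).

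Of the apolipoproteins, 8 of 18 were tested, and the calls were 4 up with Oct4, 2 down with Sox2, and 3 up and 1 down with both Klf4 and OSK. CLU, which encodes the secreted chaperone clusterin (apolipoprotein J), fell from 6757 on average in GFP to 2552 with Sox2 (-1.41, SE 0.08; limma adjusted p = 1.78e-09). It was higher with Oct4, at 20356 and 17945 normalised counts against 6493 to 7267 in GFP, and with Klf4 (0.37, SE 0.08). APOL6 rose with Oct4 (2.56, SE 0.15), Klf4 (2.73, SE 0.15) and OSK (2.11, SE 0.15), and APOL2 with Oct4 (1.67), Klf4 (0.79) and OSK (0.93), while APOL2 fell with Sox2 (-0.25; SE 0.08 each). APOL genes are close relatives of each other, so reads shared between them are uncertain.

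Of genes for lipoprotein assembly and remodelling, 11 of 15 were tested, and the calls were 4 up and 3 down with both Oct4 and OSK, 7 up and 2 down with Sox2, and 2 up and 1 down with Klf4. LIPG, the endothelial lipase and a relative of the near-silent LPL and LIPC, had 64.5, 47.5 and 63.2 normalised counts in GFP, 307 and 409 in Oct4 and 599 and 830 in Sox2. Its log2 change was 2.59 with Oct4 (SE 0.19; limma adjusted p = 2.99e-08) and 3.58 with Sox2 (SE 0.19; limma adjusted p = 5.27e-10). PLTP, the phospholipid transfer protein, fell in all 4 lines, at -1.11, -1.87, -0.35 and -0.29 with Oct4, Sox2, Klf4 and OSK (SE 0.09 each), and ANGPTL4, a lipase inhibitor, rose with Sox2 (2.48, SE 0.42; limma adjusted p = 1.66e-04). LCAT fell with OSK (-0.75, SE 0.11), P4HB rose in all 4 lines, at 0.30, 0.52, 0.23 and 0.53 with Oct4, Sox2, Klf4 and OSK, and SAR1B rose with Sox2 (0.23), Klf4 (0.38) and OSK (0.34; SE 0.08 each). The P4HB call with Klf4 was lost without GFP replicate 1 (0.15, SE 0.06; limma adjusted p = 0.0649). In that fit ANGPTL4 was also higher with Oct4 (1.45, SE 0.40; limma adjusted p = 0.00751). LCAT was also lower there with Klf4 (-0.36, SE 0.11; limma adjusted p = 0.0143).

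Of lipoprotein receptors, 14 of 16 were tested, and the calls were 4 up and 2 down with both Oct4 and OSK, and 5 up and 4 down with both Sox2 and Klf4. LRP8, an APOE receptor, rose in all 4 lines, at 0.45 with Oct4, 2.13 with Sox2, 1.601 with Klf4 and 1.70 with OSK (SE 0.15 each). SORL1 rose with Oct4 (1.597), Klf4 (1.92) and OSK (0.43) and fell with Sox2 (-0.86; SE 0.12 each). LRP4 rose with Sox2 (2.53) and fell with Klf4 (-1.49; SE 0.24 each). Without GFP replicate 1 LRP4 was also higher with Oct4 (0.88, SE 0.22; limma adjusted p = 0.00387). CD36, a scavenger receptor, had 52.7 and 61.6 normalised counts in Sox2 and 15.9, 2.02 and 1.94 in GFP. It was called at 3.45 (SE 0.86; limma adjusted p = 0.0041). Without GFP replicate 1 the log2 change of CD36 was 4.28 (SE 0.74; limma adjusted p = 1.22e-04), from values near the detection limit in GFP.

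Of genes for cholesterol storage and transfer, 16 of 18 were tested, and the calls were 6 up and 3 down with Oct4, 5 up and 5 down with Sox2, 5 up and 2 down with Klf4, and 4 up and 2 down with OSK. PLIN2, which coats lipid droplets, had 2818, 3076 and 3489 normalised counts in GFP, 863 and 1166 in Oct4 and 326 and 352 in Sox2, and its log2 change was -1.63 (SE 0.11) and -3.20 (SE 0.11; limma adjusted p = 4.52e-12). It also fell with Klf4 (-0.77) and OSK (-1.15). NCEH1, a cholesteryl ester hydrolase, rose in all 4 lines, at 0.36, 0.68, 1.51 and 2.09 with Oct4, Sox2, Klf4 and OSK (SE 0.11 each). GRAMD1A, which carries cholesterol from the plasma membrane inward, fell with Klf4 (-1.21, SE 0.10) and OSK (-1.62, SE 0.10). Without GFP replicate 1 GRAMD1A was also lower with Oct4 (-0.34, SE 0.09; limma adjusted p = 0.0053) and Sox2 (-0.23, SE 0.09; limma adjusted p = 0.0425). OSBPL8 rose in all 4 lines, most with Sox2 (2.00, SE 0.08), and LIPE rose with Klf4 (1.36, SE 0.14) and fell with Sox2 (-0.55). SOAT2, a cholesterol-esterifying enzyme, had 34.8 and 97.3 normalised counts in Oct4 and 49.6, 1.01 and 0.97 in GFP. Its log2 change with Oct4 was 3.34 (SE 1.14; limma adjusted p = 0.0307), and 4.90 (SE 0.75; limma adjusted p = 4.38e-05) without GFP replicate 1. In that fit SOAT2 was also higher with Klf4 (3.62, SE 0.75; limma adjusted p = 0.001). Both rest on GFP values near the detection limit.

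**Figure D5:**
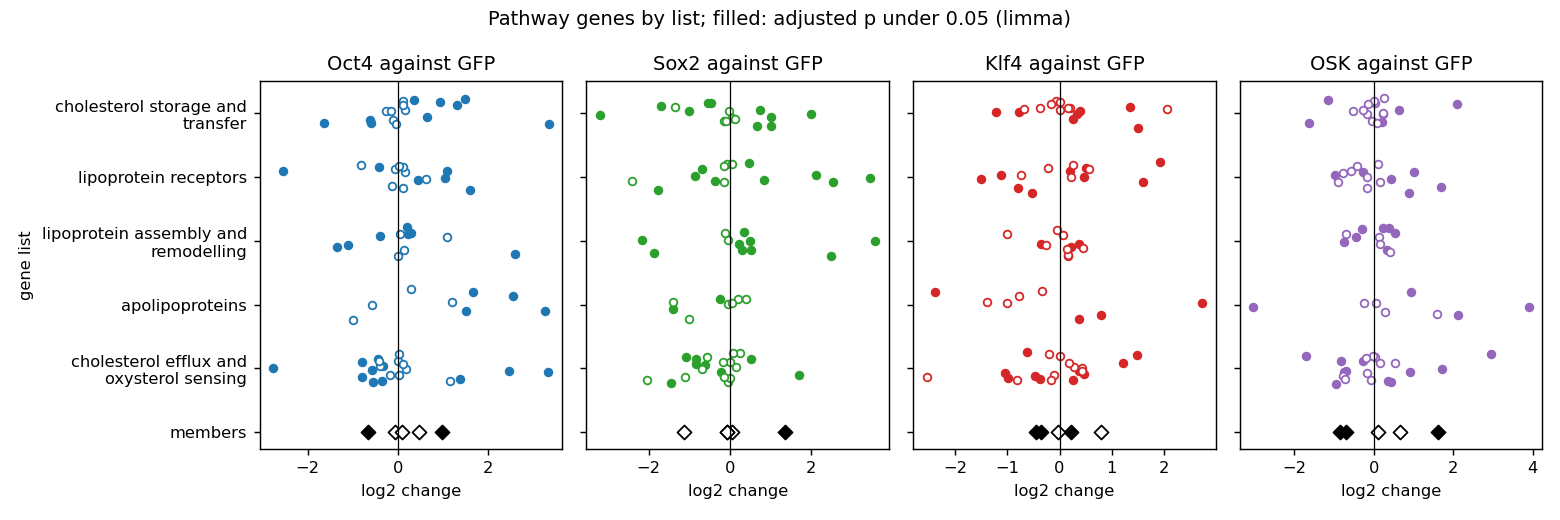
Log2 change from GFP (horizontal axes) of each tested gene in the 5 pathway lists and of the 5 tested members (diamonds), 1 panel per line, with filled points for an adjusted p under 0.05 in limma. Vertical scatter within a list carries no value. In each panel filled points lie on both sides of 0.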

How the data were processed

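The deposited table gives normalised counts as a signal per gene. The submitters' processing notes name STAR 2.7.1a and featureCounts 1.6.2, and human and mouse genome builds without saying which served here. From the values, the authors divided gene counts by 1 factor per library and rounded to 2 decimals: up to 200, each value divided by the library's smallest step gave a whole number (tolerance 0.0061). The steps of GFP replicates 1 and 2 (0.993 and 1.01) lie near 1. The design assumed this unit. All 11 libraries entered 1 limma 3.58.1 fit (R 4.3.3, eBayes with trend, a mean per group), with Benjamini-Hochberg adjustment over 18828 genes. edgeR 4.0.16 and DESeq2 1.42.0 ran on recovered reads as alternatives, beside another scaling, pseudocount and filter, a replicate block and leaving out each library. Gene lengths came from GENCODE 29, which matched 95.0% of tested genes. The procedure was tested on simulated data with the same dispersion for every gene and no library that stood apart. That test does not cover a library like GFP replicate 1. Members, lists and tests were chosen with earlier results of these data known. Named genes were the members, the 2 largest called changes per list and comparison with GFP (mean at least 50 normalised counts in a compared group), and the 2 most similar patterns per tested member. Of these, 2 genes are not reported here. The search for the AGGTCA pair was added after the data were seen.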

Additional observations from a re-analysis of the deposited data

How the results depend on the processing

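Of 55 member comparisons, 23 were called. All 23 kept their direction under the 18 alternatives, and 14 stayed called under each one run. The number of members called moved by more than 1.5 times in 5 comparisons. It fell to 1 for Klf4 against GFP with DESeq2, no filter or only the compared groups, for OSK against Klf4 and Klf4 against Oct4 with DESeq2 or no filter, and for Sox2 against Oct4 with no filter, and to 0 for OSK against the sum with no filter. Leaving out each library in turn gave 1 to 3 members for Klf4 against GFP, 1 to 2 for OSK against Klf4 and Klf4 against Oct4, 0 to 3 for Sox2 against Oct4 and 0 to 1 for OSK against the sum. A line left with 1 library was assumed to vary like the others. Sign changes occurred only in uncalled values. Leaving out each library, SCARB1 ranged from -0.1609 to 0.01498 with Oct4 and from -0.02968 to 0.09447 with Sox2, ABCA1 from -0.07698 to 0.01484 with Klf4, ABCG1 from -0.1311 to 0.532 for OSK against Oct4, -0.6698 to 0.4358 for OSK against Klf4, -0.2354 to 0.8702 for Klf4 against Oct4 and -1.05 to 1.351 against the sum, and APOE from -0.01989 to 0.4202 for Klf4 against Oct4. With the replicate number as a block, ABCA1 with Klf4 was 0.003276, and ABCG1 exceeded Sox2 in OSK (1.80, limma adjusted p = 0.0474) and Klf4 (1.91, limma adjusted p = 0.0357). No other call changed with the block. The numbers are not stated to pair libraries, and 1 of 10 pairs of groups had deviations correlated above 0.1 (range -0.0693 to 0.412). That pair was GFP and OSK, the groups whose replicate 1 had reads on more features than the other libraries. The fit of compared groups only does not exist for the sum, which uses all groups. With no filter the median of all genes moved from -0.02 to -0.33 with Oct4, Sox2 and Klf4, from -0.01 to -0.24 with OSK and from -0.02 to 0.66 against the sum. Over all genes, OSK against Klf4 called 4049, but 2580 without Klf4 replicate 1 and 2539 without OSK replicate 2. The counts of pathway genes stayed within 1.5 times. The causes were not tested. Depth limits ABCG1, APOB, CETP, LIPC and LPL.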
